A study of Mus musculus with 7 samples.

Results

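The myostatin, activin and follistatin system was followed through 10 genes in quadriceps muscle of AR113Q knock-in mice, a model of an inherited neuromuscular disease caused by a polyglutamine expansion. The ligand genes were Mstn, Gdf11, Gdf5, Inhba and Inhbb. The antagonist genes were Fst and Fstl3, with the follistatin-like gene Fstl1 set beside them. The type II receptor genes were Acvr2a and Acvr2b. All 10 genes were taken by name, and every array probe annotated to them was read, which gave 13 probes of 39429. Quadriceps RNA came from C57BL/6 mice at 3 months of age, with 4 WT mice and 3 AR113Q mice, which carry a knocked-in humanized sequence with an expanded CAG tract. Each mouse was hybridized to 1 single-dye Agilent mouse array. The labels call the controls WT, whereas the text of the study describes them as a knock-in control line carrying a shorter repeat, and the labels give no sex.

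Myostatin is a secreted ligand of the TGF-beta superfamily, made mainly by skeletal muscle, and it restrains muscle growth. Myostatin, its close relative GDF11 and the activins bind the type II receptors ACVR2A and ACVR2B, which recruit a type I receptor and lead to phosphorylation of SMAD2 and SMAD3. Follistatin and FSTL3 bind these ligands outside the cell and keep them from the receptors, and GDF5 belongs to the BMP branch, which acts through SMAD1, SMAD5 and SMAD9.

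Values are normalized log2 intensities, and a difference of 1 on this scale is a doubling. A gene was called differentially expressed (DEG) when its limma adjusted p did not exceed 0.05 and its log2 fold change reached 1 or -1. Between 18803 and 22035 probes per array (47.7 to 55.9%) were well above background, no spot of any probe was saturated, and the number of arrays limits the precision. Arrays of the same genotype correlated at 0.969 to 0.987 across probes and arrays of different genotypes at 0.908 to 0.943. The arrays lay on 5 slides, and a mouse of each genotype was found together on 1 slide only (WT replicate 2 with AR113Q replicate 1). With slide as a fixed effect the genotype difference is read within that slide alone, and 0 of the 20987 probes tested were then DEGs by limma, with 7928 at an unadjusted p below 0.05.

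The 250 bases before the RefSeq start are shown for Mstn itself and for Inhbb, the increased activin subunit gene, with each E-box (CANNTG, the core sequence bound by muscle basic helix-loop-helix factors) in capitals. The Mstn sequence is chr1:53061390-53061639 on the plus strand and the Inhbb sequence chr1:119422249-119422498 on the minus strand, both in GRCm38.p6 and from RefSeq.
Mstn: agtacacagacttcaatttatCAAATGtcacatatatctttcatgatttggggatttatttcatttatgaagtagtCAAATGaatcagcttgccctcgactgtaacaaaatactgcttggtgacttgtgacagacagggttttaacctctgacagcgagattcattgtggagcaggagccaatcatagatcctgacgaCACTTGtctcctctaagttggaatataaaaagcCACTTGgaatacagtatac
Inhbb: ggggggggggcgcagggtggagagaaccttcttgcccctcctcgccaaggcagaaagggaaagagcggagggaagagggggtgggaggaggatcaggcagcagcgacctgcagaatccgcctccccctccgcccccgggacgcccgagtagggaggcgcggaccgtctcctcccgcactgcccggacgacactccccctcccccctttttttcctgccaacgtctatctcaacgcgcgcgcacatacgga

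The Mstn sequence held 4 E-boxes, starting between 19 and 229 bases before the start, 1 TATAAA at 29 bases and 2 CAGAC elements of the kind bound by SMAD proteins, on either strand. The Inhbb sequence held none of these. Inhba held 1 TATAAA at 91 bases and none of the other elements, and Fstl1 held none of the elements named here. Among 32851 mouse promoters of the same length, 66.2% held an E-box, 42.2% the SMAD element and 12.4% the TATA box. The MyoD type of E-box (CAGCTG, which is also counted as an E-box) was in 13% of promoters and a FOXO element (GTAAACA) in 3.17%, and neither was found in the Mstn window. Upstream sequences were found for 8 of the 10 genes, and those of Fst and Gdf5 were not used here.

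Of the 10 genes, 9 had a probe with a signal well above background on 3 or more of the 7 arrays and were tested. Inhbb was increased in AR113Q muscle, and Mstn, Inhba and Fstl1 were decreased. Gdf5 also passed the thresholds as increased, but it met the detection filter through the AR113Q arrays, where it is high, and its call was lost in 12 of 19 alternatives, so it gives no support. Inhba likewise met the filter through the arrays where it is high, those of WT mice. With both genes these were 5 DEGs of 9 genes, where 24.3% of all 16574 genes tested were DEGs, 11.2% increased and 13.1% decreased. The groups did not overlap in 5 of the 9 genes, against 49.3% of all genes, so non-overlap was about as frequent among the 9 as in the transcriptome. An adjusted p of 0.05 or less was reached by 6 of the 9, against 43.5% of all genes. Counted by probe, 5 of 10 tested probes were DEGs and 5 did not overlap, against 24.8% and 49.6% of all 20987 probes tested. The median log2 fold change was -0.50 over the 9 genes and -0.01 over all genes, while the median absolute log2 fold change was 1.30 against 0.54. Fewer cells of a type and less RNA per cell cannot be told apart in whole-muscle RNA.

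**Figure D1:**
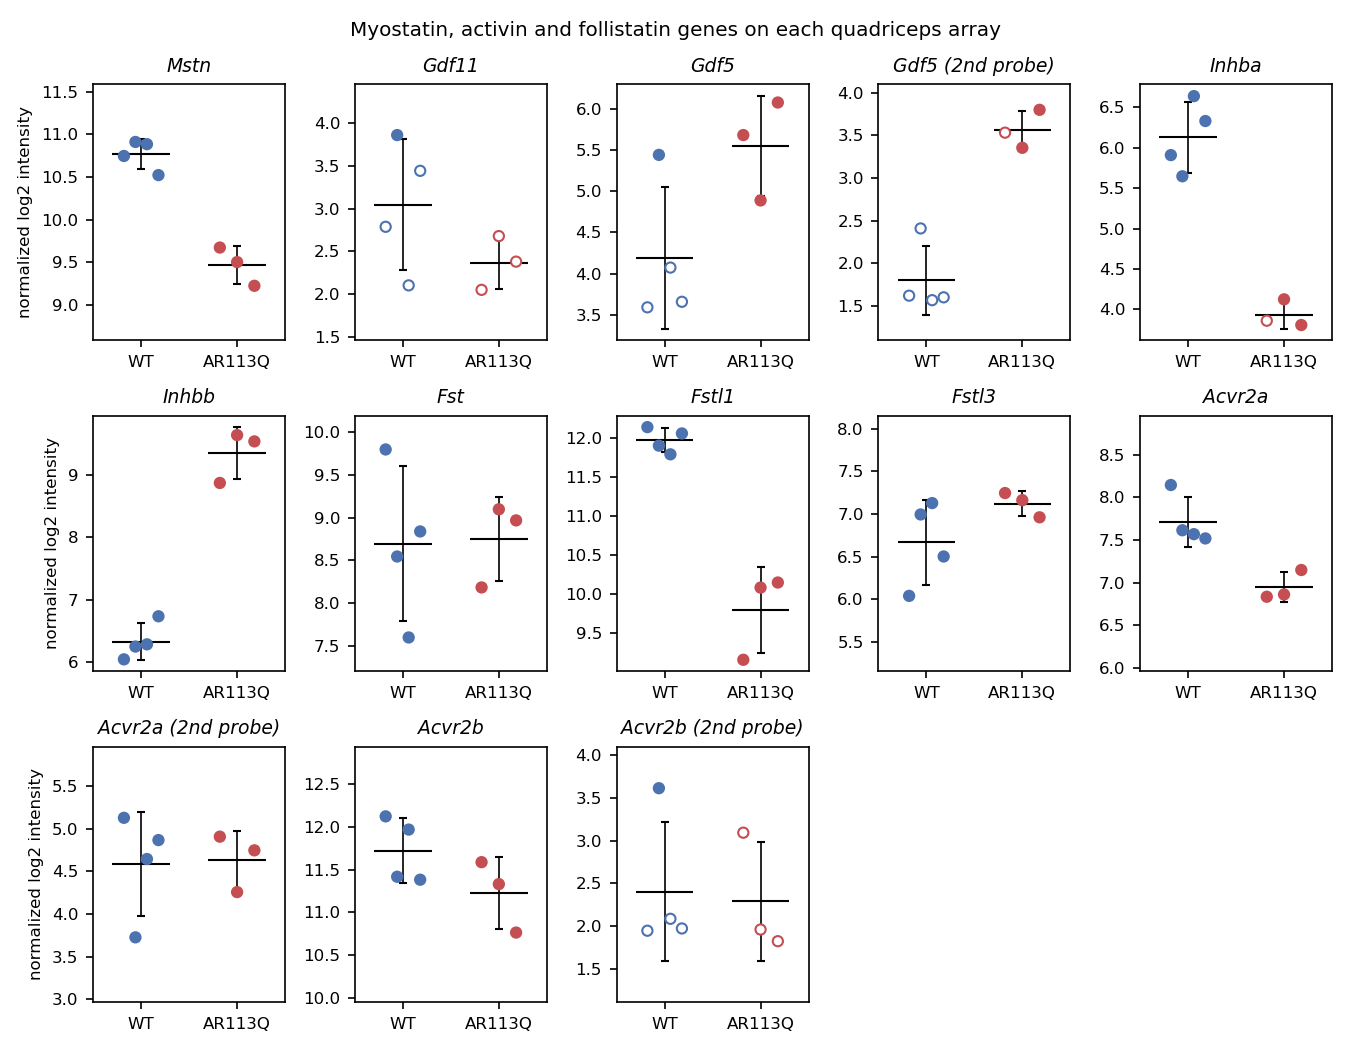
Normalized log2 intensity (vertical axis, a separate range for each panel) of the 13 probes on 4 WT (blue) and 3 AR113Q (red) arrays; 1 point is 1 mouse, an open circle marks a probe not well above background on that array, the horizontal line is the mean and the bar ± SD. The AR113Q points of Mstn, Inhba, Fstl1 and the brighter Acvr2a probe lie below all WT points, those of Inhbb and the dimmer Gdf5 probe lie above them, and the brighter Gdf5 probe overlaps.

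Mstn, which encodes myostatin itself, was read by 1 probe (mm9 chr1:53124482-53124541, plus strand) that was well above background on all 7 arrays. It was at 10.75, 10.91, 10.89 and 10.52 in WT replicates 1 to 4 and at 9.67, 9.50 and 9.23 in AR113Q replicates 1 to 3. Every AR113Q mouse was below every WT mouse, and the distance between the groups exceeded the spread within either. The means were 10.77 ± 0.18 (SD, n = 4) and 9.47 ± 0.23 (SD, n = 3), a log2 fold change of -1.30 (SE 0.18, 95% interval -1.70 to -0.89, adjusted p = 0.000935), or 2.46-fold lower. Within the slide that held both genotypes the difference was -1.24, and with slide as a fixed effect the adjusted p was 0.0901.

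Gdf11, which encodes the ligand closest to myostatin, was at the limit of the array. Its probe reads the minus strand at mm9 chr10:128322284-128322343, within the coding sequence, and is shown because the absence of a call rests on it alone.
Gdf11 probe: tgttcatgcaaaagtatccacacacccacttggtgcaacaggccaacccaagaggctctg

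The Gdf11 probe read 2.79, 3.86, 2.10 and 3.44 in WT and 2.05, 2.68 and 2.38 in AR113Q muscle. It was well above background on 1 WT array (replicate 2) and on none from AR113Q mice, so it was not tested and no fold is given. The 2 groups overlapped.

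Gdf5, a BMP-type ligand known to be induced in denervated muscle, was read by 2 probes. Its brighter probe (mm9 chr2:155766801-155766860, minus strand) was at 3.59, 5.44, 4.07 and 3.66 in WT and at 5.68, 4.89 and 6.07 in AR113Q muscle. WT replicate 2 was the only WT array with a signal well above background, and its value lay among those of the AR113Q mice. The fit gave a log2 fold change of 1.36 (SE 0.47, 95% interval 0.27 to 2.44, adjusted p = 0.0476). The probe met the detection filter through the 3 AR113Q arrays, and 3 of the 4 WT values behind this difference were not well above background, so its size is uncertain.

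The call for Gdf5 was lost in 12 of 19 alternatives that gave it a value. Scaling to the 75th percentile gave a log2 fold change of 1.13 (adjusted p = 0.0900), normexp background correction gave 0.26, and the difference within the slide of both genotypes was 0.24. It was also lost when WT replicate 1, 3 or 4 or AR113Q replicate 1 or 3 was left out, with values from 1.09 to 1.32, and was kept without WT replicate 2 (1.79) or AR113Q replicate 2 (1.71). The dimmer Gdf5 probe is in coding sequence on the minus strand at mm9 chr2:155768050-155768109, and it is shown because it gave the second reading of the gene.
Gdf5 second probe: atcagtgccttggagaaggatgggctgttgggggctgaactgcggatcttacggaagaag

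This second Gdf5 probe read 1.62, 2.41, 1.57 and 1.60 in WT and 3.53, 3.36 and 3.80 in AR113Q muscle. It rose well above background on 0 of 4 WT arrays and 2 of 3 AR113Q arrays, so it was not tested. The groups did not overlap, and no fold is given because the AR113Q mean was under the lowest signal well above background on the WT arrays, averaged over them.

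Inhba and Inhbb, the genes of the activin beta A and beta B subunits, moved in opposite directions. Activin A is a dimer of the Inhba product and activin B of the Inhbb product. Inhba was read by a coding-sequence probe on the plus strand at mm9 chr13:16118634-16118693, shown here because the difference rests on this single probe.
Inhba probe: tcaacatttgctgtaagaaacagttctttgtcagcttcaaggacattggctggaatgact

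Inhba was at 5.91, 5.65, 6.64 and 6.33 in WT and at 3.86, 4.12 and 3.80 in AR113Q muscle. All WT arrays were above all AR113Q arrays, and the signal stood well above background on 4 of 4 WT arrays and on 2 of 3 AR113Q arrays (not on replicate 1). The means were 6.13 ± 0.44 (SD, n = 4) and 3.93 ± 0.17 (SD, n = 3), a log2 fold change of -2.20 (SE 0.25, 95% interval -2.78 to -1.63, adjusted p = 0.000451). The 4 WT arrays, where it is high, were enough for the probe to meet the detection filter, and 1 of the 3 AR113Q values was not well above background, so no exact fold is given. The size differed between processing settings. The log2 fold change was -0.57 after normexp correction and -0.33 in the authors' normalized values, both under the fold threshold, with adjusted p of 0.00659 and 0.0213. Normexp correction added an offset of 50 to each intensity, and the background-subtracted Inhba intensities were 11.5 to 90.1 before normalization.

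Inhbb, in contrast, was increased. Its probe (mm9 chr1:121312160-121312219, minus strand) was at 6.05, 6.25, 6.29 and 6.74 in WT and at 8.87, 9.63 and 9.53 in AR113Q muscle. The lowest AR113Q mouse was above the highest WT mouse by more than the spread of either group. The means were 6.33 ± 0.29 (SD, n = 4) and 9.34 ± 0.42 (SD, n = 3), a log2 fold change of 3.01 (SE 0.24, 95% interval 2.45 to 3.57, adjusted p = 0.000135), 8.07-fold higher. The difference was 2.61 within the slide of both genotypes (adjusted p = 0.0531 with slide as a fixed effect) and 1.76 in the authors' normalized values, in which it was still a DEG. For Inhba the within-slide difference was -1.79 (adjusted p = 0.0583 with slide as a fixed effect).

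Fst, which encodes the antagonist follistatin, did not pass the test. It was at 9.80, 8.55, 7.60 and 8.84 in WT and at 8.18, 9.10 and 8.97 in AR113Q muscle. The AR113Q values lay inside the WT range, which was wide. The log2 fold change was 0.05 (SE 0.48, 95% interval -1.04 to 1.15, adjusted p = 0.936), and this interval reaches a doubling in either direction. Its sign was not settled, being 0.05 here, -0.36 within the slide of both genotypes and -0.31 without WT replicate 3.

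Fstl1, a secreted glycoprotein with a follistatin-type domain that is expressed by stromal and muscle cells, was decreased. Its probe (mm9 chr16:37836492-37836551, plus strand) was at 12.14, 11.90, 11.79 and 12.06 in WT and at 9.16, 10.09 and 10.15 in AR113Q muscle. The groups were clearly separate, and AR113Q replicate 1 was the lowest array. The means were 11.97 ± 0.16 (SD, n = 4) and 9.80 ± 0.55 (SD, n = 3), a log2 fold change of -2.17 (SE 0.26, 95% interval -2.76 to -1.59, adjusted p = 0.000532), 4.51-fold lower. Across every alternative run the value stayed between -2.74 and -1.86, and with slide as a fixed effect the adjusted p was 0.0508.

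Fstl3, a secreted antagonist of activins and myostatin related to follistatin, was at 6.04, 6.99, 7.13 and 6.50 in WT and at 7.24, 7.16 and 6.96 in AR113Q muscle. The groups overlapped, and the log2 fold change was 0.46 (SE 0.27, 95% interval -0.16 to 1.07, adjusted p = 0.201).

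Acvr2a and Acvr2b encode the receptors that these ligands share, and neither was a DEG. The brighter Acvr2a probe (mm9 chr2:48758429-48758488, plus strand) was at 8.14, 7.61, 7.57 and 7.52 in WT and at 6.83, 6.86 and 7.15 in AR113Q muscle. The groups did not overlap, and WT replicate 1 was above the other WT arrays. The log2 fold change was -0.76 (SE 0.20, 95% interval -1.22 to -0.31, adjusted p = 0.0154), 1.70-fold lower and short of the fold threshold.

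The dimmer Acvr2a probe (mm9 chr2:48757324-48757383, plus strand) did not show this difference. It was at 5.13, 3.73, 4.64 and 4.87 in WT and at 4.91, 4.26 and 4.75 in AR113Q muscle, with overlapping groups. Its log2 fold change was 0.05 (SE 0.33, 95% interval -0.72 to 0.81, adjusted p = 0.924), turned to -0.22 when arrays were scaled to the 75th percentile and was 1.18 within the slide of both genotypes. The mean over both probes gave -0.36 (adjusted p = 0.250).

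Acvr2b, on its main probe (mm9 chr9:119342560-119342619, plus strand), was at 12.13, 11.42, 11.97 and 11.38 in WT and at 11.59, 11.33 and 10.76 in AR113Q muscle. The groups overlapped, and the log2 fold change was -0.50 (SE 0.27, 95% interval -1.12 to 0.12, adjusted p = 0.170), with 0.17 within the slide of both genotypes. A second probe, for a predicted transcript, was well above background on 1 of 7 arrays and was not tested.

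**Figure D2:**
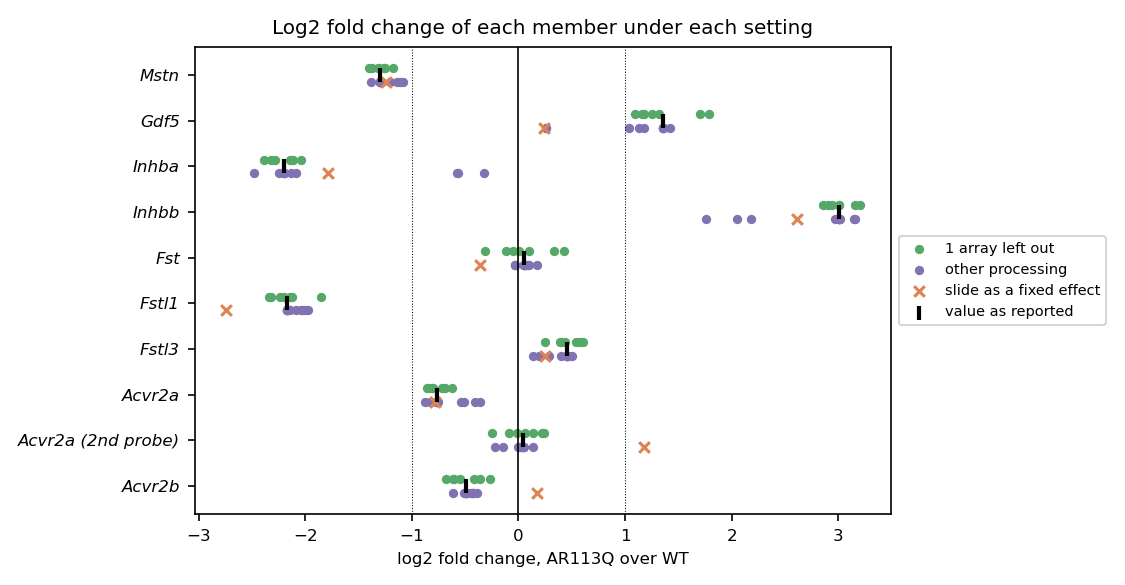
Log2 fold change of AR113Q over WT (horizontal axis) for the 10 tested probes under each processing setting; black bars are the values as reported, green points leave out 1 array, purple points change another step, orange crosses have slide as a fixed effect, and dotted lines mark -1 and 1. Mstn and Fstl1 stay below -1 and Inhbb above 1 throughout, whereas Inhba and Gdf5 cross the dotted lines and Fst crosses 0.

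The other genes of the pathway were described over 69 genes in 7 lists, of which 59 could be tested. There were 21 DEGs among them, 11 increased and 10 decreased. Of these, Wfikkn1 and Acvr1c met the detection filter through 1 genotype alone, and Bmp5 met it through the WT arrays, where it is high. The 21 are 35.6%, against 24.3% of all genes tested (11.2% increased and 13.1% decreased), and the median log2 fold change was 0.20 over the 59 genes.

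**Figure D3:**
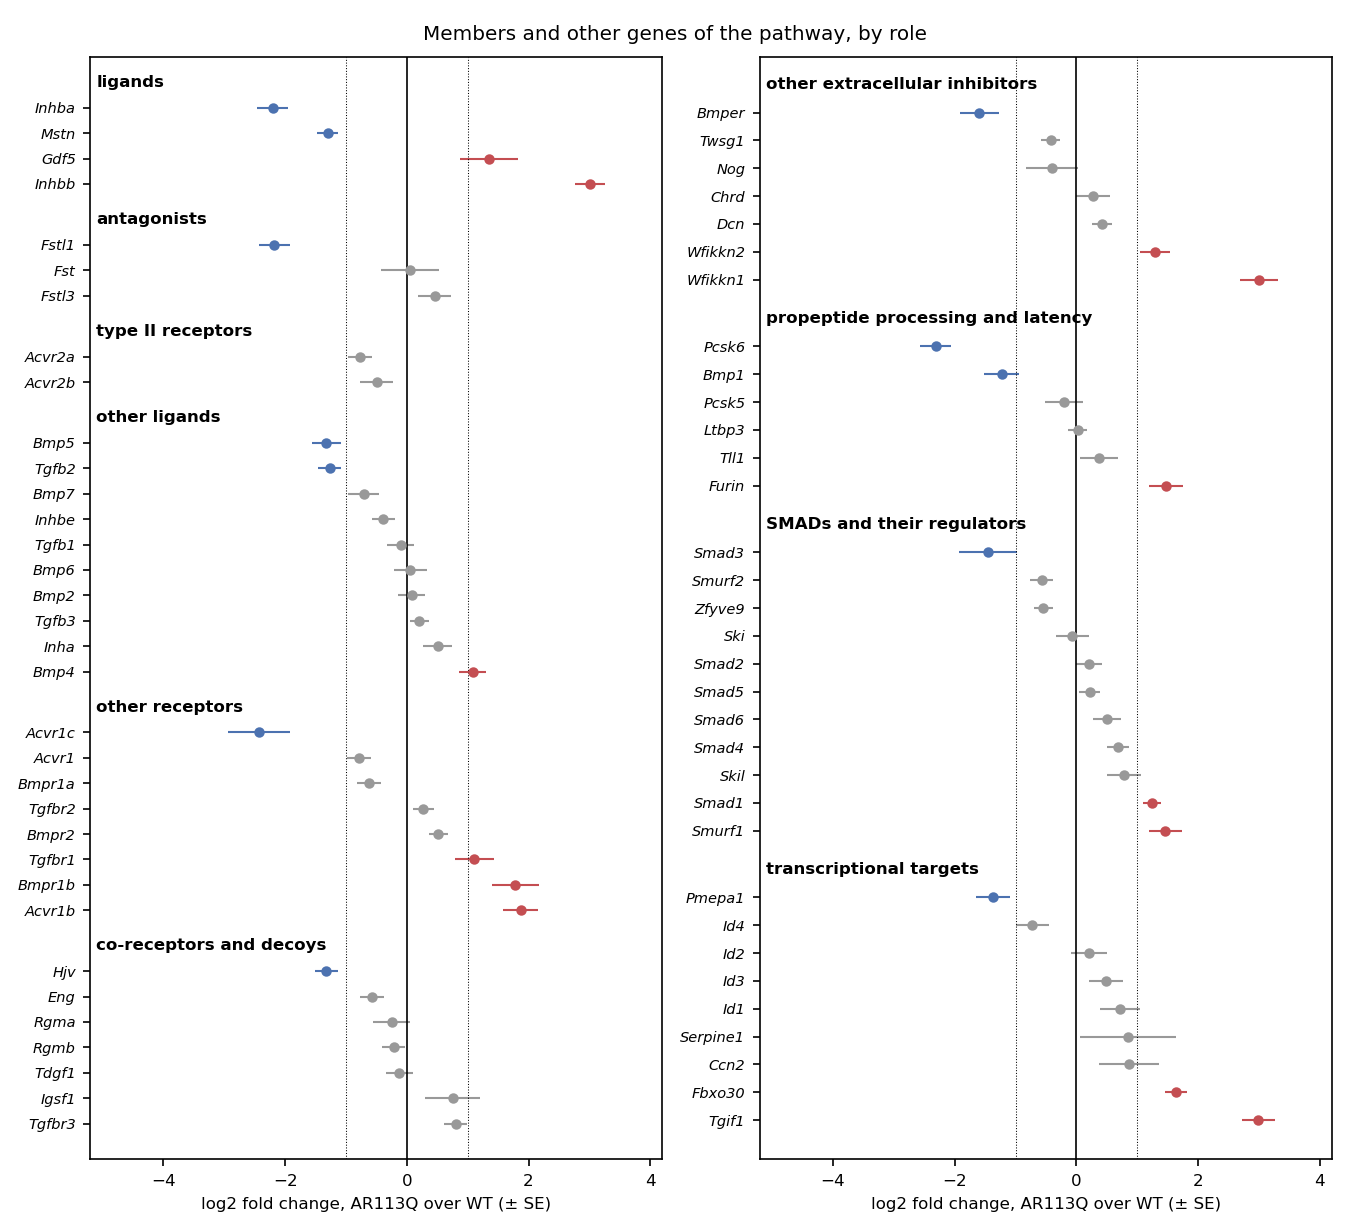
Log2 fold change of AR113Q over WT (horizontal axis) with ± SE bars for the tested members and the other pathway genes reported here, grouped by role; red points are increased DEGs, blue points decreased DEGs, grey points neither, and dotted lines mark -1 and 1. Inhbb (3.01) and Tgif1 (2.99) lie far to the right, and Wfikkn1 and Acvr1c are drawn at measured values for which only a bound holds.

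Of 13 other ligand genes, 10 were tested, 1 was increased and 2 were decreased. Bmp4, a BMP ligand, had a log2 fold change of 1.08, Tgfb2, a TGF-beta isoform, of -1.27 and Bmp5, another BMP ligand, of -1.32. Bmp4 was not a DEG without WT replicate 1 (0.96) or without AR113Q replicate 3 (0.94), and Bmp5 was not one in the authors' normalized values (-0.22). Bmp5 was well above background on 4 of 4 WT and 2 of 3 AR113Q arrays. It met the detection filter through the WT arrays, where it is high, so the size of its difference is uncertain. Inhbc, Gdf6 and Gdf7 were not tested.

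All 8 other receptor genes were tested, with 3 increased and 1 decreased. Acvr1b, the type I receptor ALK4 through which activins and myostatin signal, was at 6.35, 6.60, 6.88 and 5.95 in WT and at 8.78, 8.32 and 7.84 in AR113Q muscle, without overlap. Its log2 fold change was 1.87 (adjusted p = 0.00151), or 0.90 in the authors' normalized values. Bmpr1b, the type I receptor of GDF5, had a log2 fold change of 1.78, and 0.58 in the authors' values, where the fold threshold was missed. Acvr1c, the type I receptor ALK7, had no AR113Q array well above background and was at least 3.52-fold lower in AR113Q muscle, by the WT mean against the mean, over the AR113Q arrays, of the higher of the array's lowest signal well above background and the probe's own signal. It met the detection filter through the WT arrays alone, so its call is no support. Its measured log2 fold change was -2.43, and -0.26 in the authors' values, in which it was no DEG.

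Of 8 co-receptor and decoy genes, 7 were tested and 1 was a DEG. Hjv, which encodes the BMP co-receptor hemojuvelin, was decreased (log2 fold change -1.32). Bambi, a decoy receptor, was not tested.

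Of 11 other extracellular inhibitors, 8 were tested, with 2 increased and 2 decreased. Wfikkn1 and Wfikkn2 encode secreted proteins that bind myostatin and GDF11. Wfikkn1 was at 3.91, 3.13, 3.15 and 3.82 in WT, where no array was well above background, and at 6.29, 6.12 and 7.10 in AR113Q muscle. It was at least 6.44-fold higher in AR113Q muscle, with a measured log2 fold change of 3.00 (SE 0.31, adjusted p = 0.00031), which was 0.84 after normexp correction and then no DEG. Wfikkn1 met the detection filter through the AR113Q arrays alone, where it is high, so it had to differ and its adjusted p is no support. Wfikkn2 had a log2 fold change of 1.29 (adjusted p = 0.00405). It was just under the fold threshold without AR113Q replicate 3 (0.97), with normexp correction (0.99) and in the authors' normalized values (0.92).

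Bmper, whose product binds BMPs, was among the decreased inhibitors, with a log2 fold change of -1.59. Grem1, Fstl4 and Fstl5 were not tested.

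Of 7 genes of propeptide processing and latency, 6 were tested, with 1 increased and 2 decreased. Furin, the convertase that cleaves promyostatin, was increased (log2 fold change 1.47, adjusted p = 0.00362). Pcsk6, a related convertase, was decreased (-2.31, adjusted p = 0.000435, and -1.44 in the authors' normalized values, still a DEG). Bmp1, a metalloproteinase that releases latent myostatin, was also decreased (-1.23, and -0.87 without AR113Q replicate 1, under the fold threshold). Tll2, a related metalloproteinase, was not tested.

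Of 13 SMAD genes and their regulators, 11 were tested, with 2 increased and 1 decreased. Smad1, of the BMP branch, was at 5.77 to 6.04 in WT and at 7.13 to 7.15 in AR113Q muscle (log2 fold change 1.24, adjusted p = 0.000476), and Smurf1, a ubiquitin ligase for SMAD1, had a log2 fold change of 1.46. Both missed the fold threshold in the authors' normalized values, at 0.49 and 0.60. Smad3, which carries the activin and myostatin signal, was at 12.21, 11.73, 11.99 and 12.04 in WT and at 9.20, 10.99 and 11.46 in AR113Q muscle. All AR113Q values were below all WT values, but AR113Q replicate 1 stood far below the rest. The log2 fold change was -1.44 (adjusted p = 0.0386), it was -0.77 without AR113Q replicate 1, and the call was lost when any array other than AR113Q replicate 3 was left out. These values are of the brighter of 2 Smad3 probes. The mean over the probes gave -0.90 (adjusted p = 0.109), which was no DEG.

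All 9 genes listed as transcriptional targets were tested, with 2 increased and 1 decreased, and their median log2 fold change was 0.72. Tgif1 encodes a repressor of transcription driven by SMAD2 and SMAD3. It was at 8.50 to 9.20 in WT and at 11.53 to 12.37 in AR113Q muscle (log2 fold change 2.99, adjusted p = 0.00021). Fbxo30, the atrophy-related ubiquitin ligase MUSA1, had a log2 fold change of 1.64 (adjusted p = 0.000434). Pmepa1, a TGF-beta target whose product holds back SMAD2 and SMAD3, had one of -1.37, and -0.99 in the authors' normalized values, just short of the threshold.

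Markers of the cells in whole muscle were read beside these genes. All 12 myofibre markers were well above background on all 7 arrays, 1 of them was decreased (Mylpf, a fast myosin light chain, -1.37) and 0 increased, with a median log2 fold change of -0.16. Their summed linear signal was 1008130 to 1090930 in WT and 729978 to 1068630 in AR113Q muscle, and Des, an intermediate filament gene, was the highest at 0.41. Some markers differed widely between mice of the same genotype. Myh7 ranged from 4.95 to 12.56 in WT and from 6.22 to 13.59 in AR113Q muscle. For Myh2 the ranges were 11.27 to 14.82 and 12.10 to 15.92. Ckm was lower without overlap (-0.80, adjusted p = 0.0101), short of the fold threshold. The reason for this spread was not tested.

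Of 10 fibroblast genes 7 were decreased and 0 increased, where 13.1% of all genes tested were decreased, with a median log2 fold change of -2.32 and a range from -4.62 (Col3a1, a fibrillar collagen) to 0.41 (Dcn, decorin). All 10 were well above background on all 7 arrays, and their summed signal was 117032 to 147027 in WT and 76905.5 to 110545 in AR113Q muscle. Fstl1, which fibroblasts also express, fell in the same samples, and the part of the fibroblast markers in its difference was not tested.

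The other marker lists are read against the same shares of all genes, 13.1% decreased and 11.2% increased. Tenocyte markers had 3 of 6 decreased (lowest Tnmd, -2.79, and highest Mkx, -0.00), and adipocyte markers 4 of 7 decreased (Adipoq, -2.71, and Pparg, -0.01). Satellite cell markers had 2 of 6 decreased (highest Megf10, -0.14). The lowest was Calcr, which had no AR113Q array well above background, was at least 2.11-fold lower there, and met the detection filter through the WT arrays alone, so its call is no support. Schwann cell markers had 3 of 7 decreased (highest Mbp, 0.56), and mural cell markers 1 of 6 (Cspg4, -1.29, and Pdgfrb, 0.37). Macrophage markers had 3 of 9 decreased and 1 increased (Adgre1, -1.94, and Cd163, 1.18), and endothelial markers 1 of 9 increased (Kdr, -0.42, and Cldn5, 1.30). Of 4 erythrocyte markers 0 were DEGs (Slc4a1, -1.45, and Hba-a1, -0.68). The part of these markers in the results above was not tested.

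**Figure D4:**
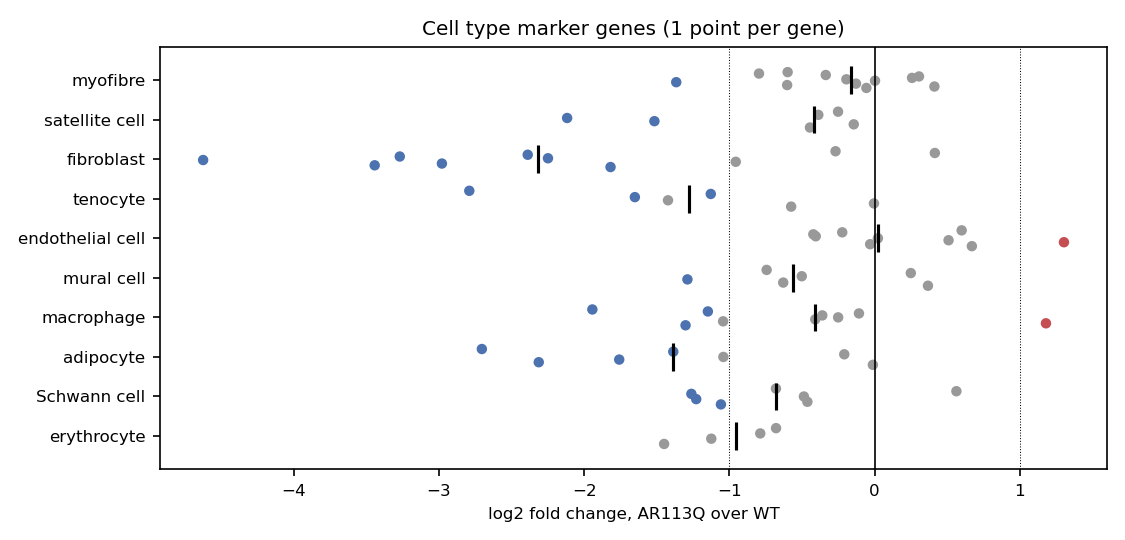
Log2 fold change of AR113Q over WT (horizontal axis) for marker genes of 10 cell types, 1 point per gene; red points are increased DEGs, blue points decreased DEGs, grey points neither, black bars the median of each list, and dotted lines mark -1 and 1. The myofibre median is -0.16 and the fibroblast median -2.32.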

How the data were processed

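The authors extracted the spots with Agilent Feature Extraction 10.7.3.1, and the deposited scanner files hold a background-subtracted intensity per spot, not normalized between arrays. They also deposited a table of log2 values of 18592 probes, described as quantile normalized, with its centring unstated. It correlated with the mean spot intensity at 0.991 to 0.999 and served as an alternative.

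Outlier spots and controls were left out, log2 intensities were quantile normalized, and spots of a probe were averaged. A probe was tested if 3 or more of the 7 arrays were well above background, which left 20987 of 39429. The linear model was fitted with lmFit and eBayes of limma 3.58.1 (R 4.3.3), and p-values were adjusted by Benjamini-Hochberg over all probes tested. A gene was called by its brightest tested probe. The fit was tested on simulated data. Groups came from the sample labels, 1 array per mouse.

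Names came through RefSeq accessions for 28324 probes (GRCm38.p6, names and upstream sequences only), otherwise from the array, and probe positions are mm9. The members and lists were chosen with earlier results of these data known. Beside the 10 members, the text names up to 2 most increased and 2 most decreased DEGs of each pathway list, the extremes of each marker list, untested list genes, and the 3 genes nearest to Mstn and to Fst in pattern. The myofibre markers Ckm, Myh2 and Myh7 are named as well, for their difference or spread. The values of a few measured genes are left out. The alternatives were another scaling, background correction, dim-probe filter, probe summary, variance model, slide or replicate terms, array weights, outlier spots kept, the authors' table and each array left out.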

Additional observations from a re-analysis of the deposited data

Results flagged for a closer look

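Of 58 genes and probes examined for a lone array among the 4 WT mice, 6 had a gap to the nearest other WT array, as a share of the group's range, above Dixon's critical value at the 95% level. Chance gives about 1 in 20. The brighter Acvr2a probe was high in WT replicate 1, at 8.14 against 7.52 to 7.61 (gap 0.847). Smurf1 was also high there, at 6.84 against 6.07 to 6.17 (gap 0.865). Low arrays were WT replicate 3 for Tgfb2, at 9.50 against 9.95 to 9.98 (gap 0.944), and for Furin, at 7.76 against 8.03 to 8.08 (gap 0.859). Mylpf was low in WT replicate 2, at 12.10 against 12.39 to 12.40 (gap 0.964), and Xpr1 in WT replicate 4, at 11.04 against 11.32 to 11.36 (gap 0.848). The group of 3 AR113Q arrays is too small for this measure.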

How the results depend on the processing

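Of the 10 member probes tested, 7 kept their direction in all alternatives run, and so did the 21 other DEGs of the pathway. The 5 member DEGs became 3 with normexp correction, 3 in the authors' normalized values, 3 with the filter on all 7 arrays, 3 with the mean spot intensity (chosen after seeing the data) and 0 with slide as a fixed effect, where 5 had an unadjusted limma p below 0.05. The 21 other pathway DEGs became 13, 11 and 0 with normexp, the authors' values and slide as a fixed effect, and the 5207 DEG probes of the array 2088, 1592 and 0, and 2264 with the mean spot intensity. With 1 array left out the counts ranged from 4 to 5, from 18 to 21 and from 4375 to 5543. Fst turned to -0.032 with normexp, -0.035 in the authors' values, -0.032 with the mean spot intensity and -0.36 with slide as a fixed effect, and ranged from -0.31 to 0.43 with 1 array left out. The dimmer Acvr2a probe turned to -0.22 at 75th percentile scaling, -0.0031 with slide as a random block and -0.15 with array weights, and ranged from -0.25 to 0.24 with 1 array left out. Acvr2b turned to 0.17 with slide as a fixed effect. The cause of these changes was not tested, apart from slide as a fixed effect, which leaves 1 pair of arrays for the comparison. Replicate numbers did not pair the mice (same-number correlations 0.04, -0.02 and 0.16). As a replicate block they gave 4 member DEGs, 20 other pathway DEGs and 5188 DEG probes. Signal over background limits Gdf11, both Gdf5 probes, Inhba, Bmp5, Acvr1c and Calcr in AR113Q muscle and Wfikkn1 in WT muscle.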

Other observations

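For Mstn and Fst, the genes with the most similar pattern were taken as those with the smallest root mean square difference over the 7 arrays, after each probe was centred on its WT mean, among 13685 genes well above background on all 7 arrays. For Mstn they were Abca8b, an ABC transporter gene (difference 0.0857, log2 fold change -1.38), Stk10, a serine/threonine kinase gene (0.110, -1.35), and Xpr1, a phosphate exporter gene (0.115, -1.34). For Fst they were Adamts5, an aggrecanase gene (0.304, log2 fold change 0.08), Hap1, which encodes huntingtin-associated protein (0.349, 0.18), and Spint2, a serine protease inhibitor gene (0.362, -0.23). The nearest gene to Fst was farther off than the third nearest to Mstn.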
